A study of Rattus norvegicus with 12 samples.

Results

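The genes described here are 8 members of cholesterol synthesis and of its control by SREBP2, namely Hmgcs1, Mvd, Fdps, Fdft1, Sqle, Cyp51, Stard4 and Srebf2. They were taken as every probe set that the platform annotation assigns to 1 of these symbols alone. This gave 12 probe sets for 7 of the 8 genes, out of 20826 single-gene probe sets for 14217 genes in all. No single-gene probe set names Hmgcs1, which was not analysed here. The arrays came from the renal cortex of male rats, 6 from ABCC2-/- kidneys, which lack the organic anion pump MRP2, and 6 from wild-type kidneys. Every kidney was a graft in a wild-type recipient, so the genotypes differ in the graft and share a recipient that carries the pump. The labels used here state no rat strain, age or time after transplantation, nor do they say whether the 6 kidneys of each genotype had 6 different donors. The p-values below therefore measure the spread between these samples, which may be partly technical.

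Cholesterol is built from acetyl-CoA through mevalonate, the isoprenoid diphosphates and squalene, in a chain of enzymes on and near the endoplasmic reticulum. SREBP2, the product of Srebf2, is a membrane-bound transcription factor that is carried to the Golgi by SCAP and released there by site-1 and site-2 proteases when membrane sterol is low, whereas INSIG proteins hold the SCAP complex back when sterol is high. Genes of the pathway are its classical targets, and in the kidney the proximal tubule cells that make up most of the cortex both take up and synthesise sterol.

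The promoters of 5 of the 8 genes, Hmgcs1, Mvd, Fdps, Cyp51 and Srebf2, were in the RefSeq table for assembly GRCr8, each running from 250 bases before to 50 bases after the gene's start. The promoters of Mvd, Fdps and Srebf2 are shown because of the limma test of the difference between the array sets, described below. In it these genes, each by its brightest probe set, had an unadjusted p under 0.05, as 18.2% of all probe sets had. None of these genes passed that test after adjustment. Capitals mark a match, on either strand, to CCAAT (the box bound by NF-Y), GGGCGG (Sp1), TCACNCCA (a short form of the sterol regulatory element) or TCACACGAG (the form known from the farnesyl diphosphate synthase gene). The Mvd promoter lies at chr19:67414925-67415224 on the minus strand, that of Fdps at chr2:176804767-176805066 on the minus strand and that of Srebf2 at chr7:115543057-115543356 on the plus strand.
Mvd: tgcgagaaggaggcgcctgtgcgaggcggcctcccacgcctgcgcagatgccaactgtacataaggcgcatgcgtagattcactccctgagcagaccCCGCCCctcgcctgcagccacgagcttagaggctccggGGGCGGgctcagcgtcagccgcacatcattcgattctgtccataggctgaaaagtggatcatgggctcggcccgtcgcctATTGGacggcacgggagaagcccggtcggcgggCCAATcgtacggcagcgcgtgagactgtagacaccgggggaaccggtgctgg
Fdps: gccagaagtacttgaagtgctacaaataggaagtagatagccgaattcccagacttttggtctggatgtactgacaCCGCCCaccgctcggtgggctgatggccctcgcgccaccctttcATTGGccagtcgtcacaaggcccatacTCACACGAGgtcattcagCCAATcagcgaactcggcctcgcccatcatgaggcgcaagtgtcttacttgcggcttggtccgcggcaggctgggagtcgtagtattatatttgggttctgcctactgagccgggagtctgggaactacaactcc
Srebf2: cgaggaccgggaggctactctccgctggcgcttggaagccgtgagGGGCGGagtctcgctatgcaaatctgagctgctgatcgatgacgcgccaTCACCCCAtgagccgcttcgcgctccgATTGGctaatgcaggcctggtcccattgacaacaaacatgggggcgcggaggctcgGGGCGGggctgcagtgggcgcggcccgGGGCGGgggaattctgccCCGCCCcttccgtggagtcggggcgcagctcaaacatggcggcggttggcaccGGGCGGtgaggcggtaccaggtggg
The longer element TCACNCCAC, which 1.12% of the 33469 promoters in the table hold, was in none of the 5 promoters. Fdps holds TCACACGAG starting 103 bases upstream of the start, a run of letters found in 0.123% of promoters, and it lies between 2 CCAAT boxes that start 130 and 85 bases upstream. Srebf2 holds TCACCCCA, a match to TCACNCCA, 156 bases upstream, with a CCAAT box 129 bases upstream; TCACNCCA was in 3.89% of promoters. Mvd holds CCAAT boxes 35 and 2 bases upstream, and a CCAAT box is in 37.5% of promoters. GGGCGG, present in 33.1% of promoters, was in all 5, and the E-box CACGTG, present in 6.42%, was in none of the 5. TCACNCCA and TCACACGAG were added to the search after the promoters had been read. These matches describe the letters in this window alone.

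The signals are the deposited probe set intensities on a linear scale, in which probe sets are not comparable with each other in level. Differences are log2(deficient) minus log2(wild type) from limma over 18625 tested probe sets, with the standard error (SE), and p-values were adjusted by the Benjamini-Hochberg method over all of them. A probe set was tested if its mean log2 signal reached the 40th percentile, and 11 of the 12 member probe sets did. Precision was set by the 6 arrays of each genotype. The Abcc2 probe set was at 0.0387 to 0.213 in deficient grafts and 0.787 to 0.987 in wild-type grafts, a log2 difference of -2.69 (limma adjusted p = 8.35e-06). The median log2 signal of the arrays ran between -1.77 and -1.57. It was highest in deficient replicates 3, 10 and 14, at -1.57, -1.61 and -1.67, and at most -1.70 in the other arrays. The same 3 arrays had the lowest share of probe sets at the floor, 17.7% to 18.9%, against 19.5% to 21.3% in the others. In the order of the series listing, the last 3 deficient arrays (replicates 3, 10 and 14) had a Gapdh 3′ to 5′ control ratio, a measure of RNA integrity and labelling, of 1.28 to 1.36, whereas it was 1.66 to 1.93 in the first 3 deficient arrays (replicates 5, 9 and 11) and 1.64 to 1.88 in the wild-type arrays. Comparisons were therefore also made within the last-listed and within the first-listed 3 arrays of each genotype, a division that no label names as a batch. Because the low ratios occur in deficient grafts alone, a fit with this ratio as covariate cannot fully separate it from genotype. Such a fit can take up part of a genotype difference.

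No member probe set differed between the genotypes after adjustment. Of the 11 tested, 0 passed an adjusted p of 0.05 in limma, where 0.0215% of all tested probe sets passed. At an unadjusted p under 0.05 there were 2 of 11, one for Mvd and one for Stard4, both lower in deficient grafts, where the share over all probe sets was 7.98%. The differences were negative for 6 and positive for 5 probe sets, where 10178 of all 18625 tested probe sets were negative. The median of the 11 was -0.02, which was also the median of all tested probe sets. Among the 11, the differences ran from -0.64 for Mvd to 0.30 for a second Stard4 probe set.

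Mvd encodes mevalonate diphosphate decarboxylase, which makes isopentenyl diphosphate, the building block of all isoprenoids. Its signal was 0.126 at the lowest, 0.225 at the median and 0.460 at the highest in deficient grafts, against 0.267, 0.380 and 0.449 in wild-type grafts. The deficient grafts covered the whole wild-type range and went below it in 3 of 6, the same 3 arrays that were listed last. The means were 0.262 ± 0.130 in deficient grafts and 0.372 ± 0.0611 in wild-type grafts (SD, n = 6 each). The log2 difference was -0.64 (SE 0.27, limma adjusted p = 0.614), equal to 1.56-fold lower with a 95% confidence interval of 1.04 to 2.33. By exact permutation the two-sided p was 0.0823. A fit with the Gapdh ratio as covariate gave -0.17, and one with that ratio and the listing position together gave -0.30.

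The Mvd difference was therefore read within each array set. In the last-listed arrays the signal was 0.174, 0.126 and 0.170 in deficient replicates 3, 10 and 14, and 0.370, 0.352 and 0.267 in wild-type replicates 4, 7 and 8, without overlap. There the log2 difference was -1.08 (SE 0.29, limma adjusted p = 0.0493), so that Mvd was the 1 member probe set of 11 past the threshold, in a comparison in which 6.39% of all probe sets passed. At an unadjusted p under 0.05 there were 4 of 11, of Mvd, Fdps, Stard4 and Srebf2, where the share over all probe sets was 24.6%. In the first-listed arrays the signal was 0.276, 0.366 and 0.460 in deficient replicates 5, 9 and 11, and 0.449, 0.389 and 0.405 in wild-type replicates 1, 6 and 9, with overlap. The difference there was -0.20 (SE 0.21, limma adjusted p = 0.749), and 0 of 11 member probe sets passed in limma, where 0.0215% of all did. None of the 11 had an unadjusted p under 0.05, where 11.5% of all did. The test of the difference between the array sets gave -0.87 for Mvd (SE 0.34, limma adjusted p = 0.180), and 0 of 11 members passed it, where 2.54% of all probe sets did. At an unadjusted p under 0.05 there were 3 of 11, for Mvd, Fdps and Srebf2, where 18.2% of all probe sets had one. The low Gapdh ratios fall on the same 3 deficient arrays as the low Mvd signals, and their part in this difference was not tested beyond the covariate above.

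**Figure D1:**
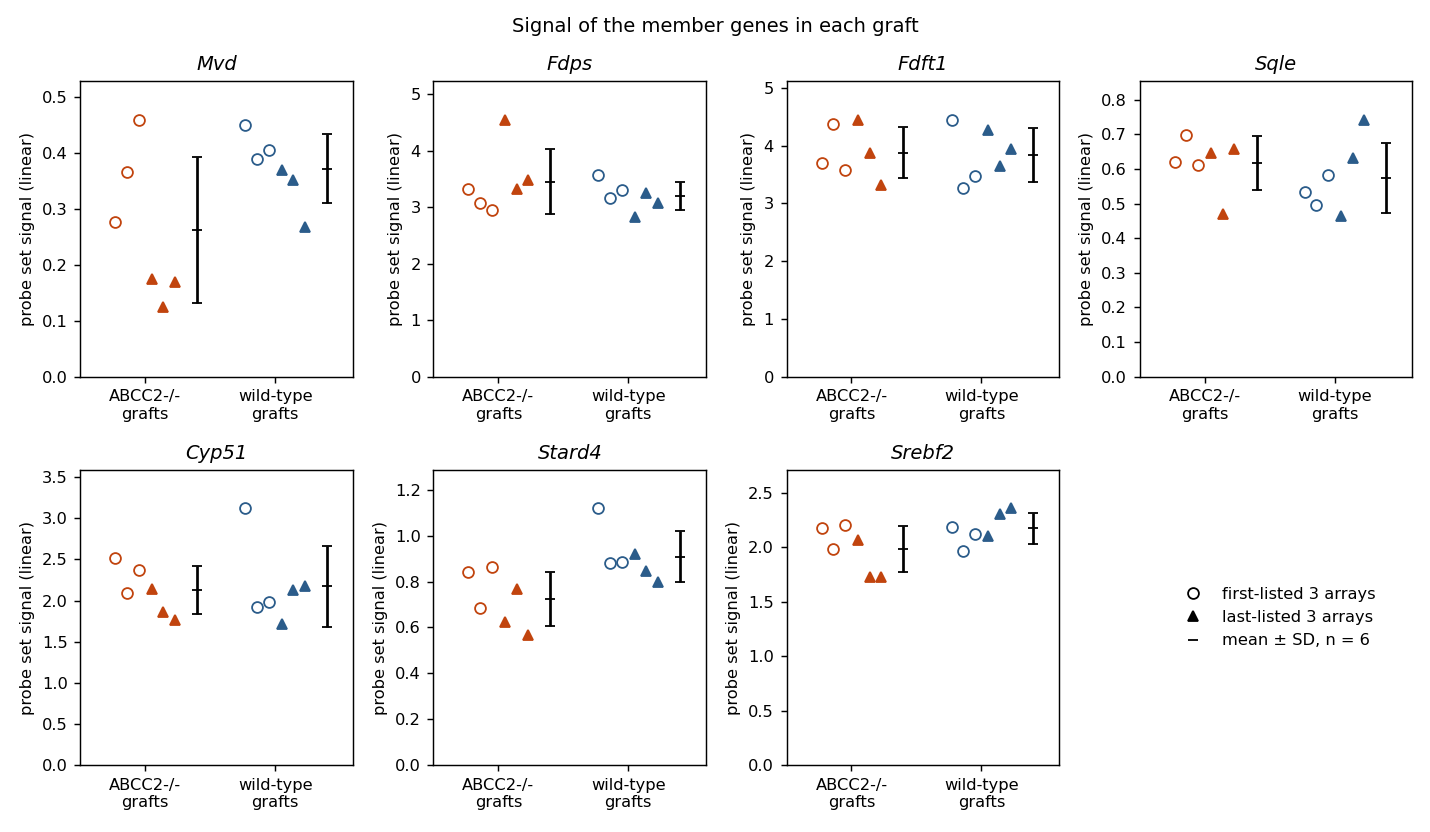
Probe set signal (linear scale, vertical axis from 0) of the 7 measured member genes in each graft, ABCC2-/- grafts left and wild-type grafts right of each panel, each gene by its probe set of highest mean. Circles are first-listed and triangles last-listed arrays, and bars are the mean ± SD (n = 6). For Mvd the 3 last-listed deficient arrays, between 0.126 and 0.174, lie below every wild-type array. For Stard4 4 deficient arrays do so and for Srebf2 2, and in every panel the ranges of the genotypes overlap.

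Fdps encodes farnesyl diphosphate synthase, which joins isoprenoid units into the precursor of squalene and of prenylated proteins. Its signal was 2.96 at the lowest, 3.32 at the median and 4.55 at the highest in deficient grafts, against 2.82, 3.21 and 3.56 in wild-type grafts. The 1 value above the wild-type range was that of deficient replicate 3. The log2 difference was 0.10 (SE 0.10, limma adjusted p = 0.736), with an exact permutation p of 0.405 (two-sided). In the last-listed arrays it was 0.30, with all 3 deficient above all 3 wild-type arrays, and in the first-listed arrays it was -0.10. The test of that difference gave 0.40 (limma adjusted p = 0.180), which did not pass the threshold.

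Squalene synthase, encoded by Fdft1, commits the pathway to sterols. Its brighter probe set was at 3.32 at the lowest, 3.78 at the median and 4.44 at the highest in deficient grafts, against 3.26, 3.79 and 4.45 in wild-type grafts, so that the ranges nearly coincided. The difference was 0.02 (SE 0.10, limma adjusted p = 0.965), with a 95% confidence interval of -0.20 to 0.23 and an exact permutation p of 0.864 (two-sided). The dimmer Fdft1 probe set was at 0.789 at the lowest, 0.956 at the median and 1.17 at the highest in deficient grafts, against 1.04, 1.10 and 1.20 in wild-type grafts. In this probe set 4 of 6 deficient grafts lay below the lowest wild-type graft, at a difference of -0.19 (SE 0.11, limma adjusted p = 0.634; exact two-sided permutation p = 0.0714). The 2 probe sets of Fdft1 thus differed in sign, except that the brighter one was at -0.04 after median centring or in the last-listed arrays, and neither passed the threshold.

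Sqle encodes squalene epoxidase, a rate-controlling oxygenase of the pathway. Its signal was 0.470 at the lowest, 0.632 at the median and 0.697 at the highest in deficient grafts, against 0.465, 0.558 and 0.743 in wild-type grafts. In 5 of 6 deficient grafts it was above the wild-type mean, and deficient replicate 10 was the exception. The difference was 0.11 (SE 0.14, limma adjusted p = 0.776; exact two-sided permutation p = 0.418), with an interval of -0.18 to 0.40.

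Cyp51 encodes the lanosterol demethylase, which acts on the first sterol of the chain. Its brighter probe set was at 1.76 at the lowest, 2.11 at the median and 2.52 at the highest in deficient grafts, against 1.71, 2.06 and 3.12 in wild-type grafts. Wild-type replicate 1 was the highest of the 12 arrays, and the other 11 reached 2.52 at most. The difference was -0.02 (SE 0.13, limma adjusted p = 0.969), with an interval of -0.30 to 0.26. After quantile normalisation the difference was 0.04. The dimmer probe set ran from 0.319 to 0.514 in deficient grafts and from 0.379 to 0.561 in wild-type grafts, at a difference of -0.08 (SE 0.15, limma adjusted p = 0.847). Both Cyp51 probe sets had the genotypes overlapping.

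Stard4 encodes a soluble sterol transfer protein that moves cholesterol between membranes and is an SREBP2 target. Its brightest probe set was at 0.568 at the lowest, 0.725 at the median and 0.863 at the highest in deficient grafts, against 0.800, 0.884 and 1.12 in wild-type grafts. All 6 deficient grafts were below the wild-type mean, and 4 of them were below the lowest wild-type graft. The means were 0.724 ± 0.119 in deficient grafts and 0.909 ± 0.111 in wild-type grafts (SD, n = 6 each). The log2 difference was -0.34 (SE 0.12, limma adjusted p = 0.606), equal to 1.26-fold lower with an interval of 1.05 to 1.51, with an exact permutation p of 0.0152 (two-sided). It was -0.40 in the last-listed and -0.27 in the first-listed arrays, and the test of that departure gave -0.13 (limma adjusted p = 0.808). The fit with the Gapdh ratio as covariate gave -0.21.

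The other probe sets of Stard4 gave no negative difference over 12 arrays. The second was at 0.237 to 0.478 in deficient grafts and 0.168 to 0.427 in wild-type grafts, a difference of 0.30 (SE 0.23, limma adjusted p = 0.668). The third was at 0.138 to 0.406 in deficient grafts and 0.228 to 0.345 in wild-type grafts, a difference of 0.02 (SE 0.24, limma adjusted p = 0.980) that was -0.29 in the first-listed arrays and -0.04 after median centring or quantile normalisation. The 3 probe sets of Stard4 therefore disagreed in sign, and the labels do not say which transcript ends they read.

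Srebf2, the gene for SREBP2 itself, had its brighter probe set at 1.73 at the lowest, 2.02 at the median and 2.20 at the highest in deficient grafts, against 1.96, 2.15 and 2.36 in wild-type grafts. Deficient replicates 10 and 14 lay below every wild-type graft, and the other 4 deficient grafts were within the wild-type range. The difference was -0.14 (SE 0.09, limma adjusted p = 0.639; exact two-sided permutation p = 0.104). With the Gapdh ratio as covariate it was -0.07, and with that ratio and the listing position it was -0.03. In the last-listed arrays it was -0.30, with all 3 deficient below all 3 wild-type arrays, and in the first-listed arrays it was 0.02. The test of that difference gave -0.32 (limma adjusted p = 0.234). The second Srebf2 probe set was below the level filter, at or below the floor of 0.0694 in 5 of 6 deficient and 6 of 6 wild-type grafts, and was not tested.

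**Figure D2:**
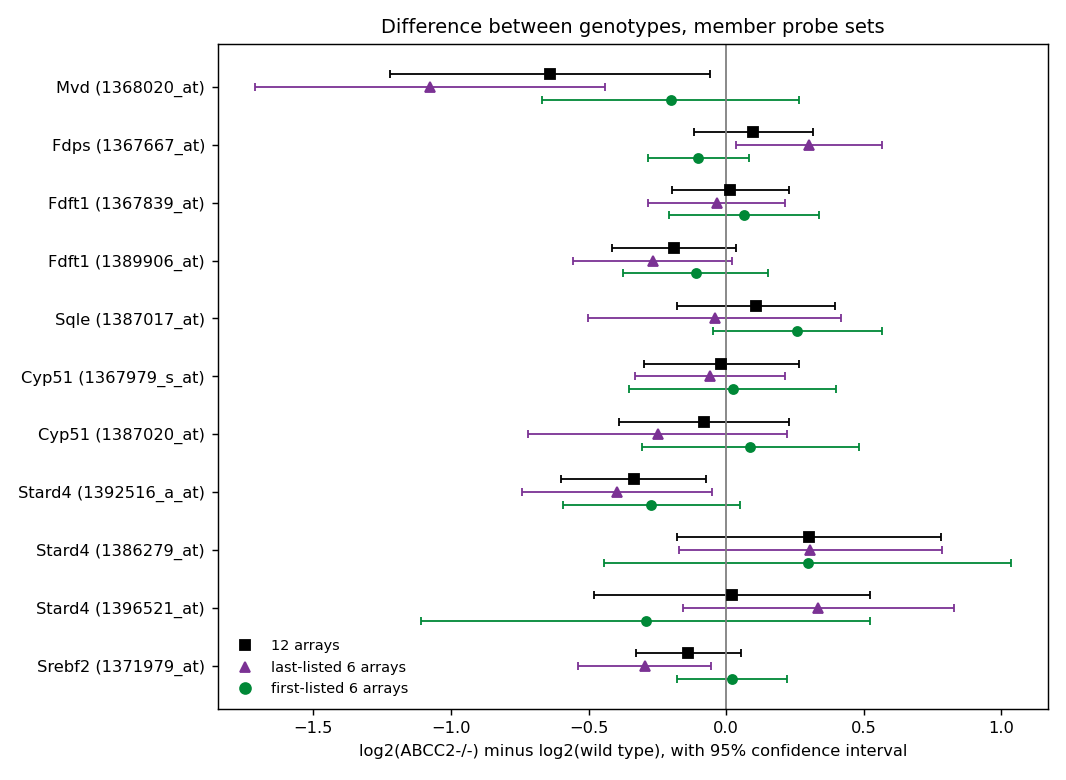
Difference log2(ABCC2-/-) minus log2(wild type), horizontal axis, with its 95% confidence interval for the 11 tested member probe sets, over 12 arrays (squares), the last-listed 6 (triangles) and the first-listed 6 (circles). Mvd is at -1.08 in the last-listed and -0.20 in the first-listed arrays, and most other intervals include 0.

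Within the last-listed arrays 8 of 11 member probe sets had a negative difference, at a median of -0.06, where the median of all tested probe sets was 0.0023. Within the first-listed arrays 5 of 11 did, at a median of 0.02, where that of all tested probe sets was -0.05. The share of negative differences over all probe sets was not counted within either set, so no trend is read from these counts. In the last-listed arrays all deficient signals were below all wild-type signals for 4 of 11 member probe sets, of Mvd, Fdft1, Stard4 and Srebf2, where 14.4% of all tested probe sets did so. They were all above for 2 of 11, of Fdps and Stard4, where the share over all was 15.2%. With the listing position as a block over 12 arrays 0 of 11 members passed in limma, where 0.601% of all did, and 3 of 11 had an unadjusted p under 0.05, where 19.5% of all did. In that fit the adjusted p was 0.111 for Mvd and 0.119 for Stard4.

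Among the other enzymes of the pathway no gene passed the threshold either. Of 22 cholesterol synthesis enzymes 19 were tested, 7 with a positive and 12 with a negative difference, where 6238 of all 10639 genes were negative. None of the 19 passed the threshold in limma, where 2 of all 10639 genes did. An unadjusted p under 0.05 was found for 2, Mvd and Pmvk, where 813 of all genes had one. The median difference was -0.04, and it was also -0.04 over all 10639 genes tested. Pmvk, the kinase one step ahead of Mvd, had a mean signal of 0.854 ± 0.102 in deficient grafts and 0.677 ± 0.186 in wild-type grafts (SD, n = 6 each), at a difference of 0.37 (SE 0.16, limma adjusted p = 0.614). Its sign was thus opposite to that of Mvd, and it was 0.37 in both array sets. Lbr, a sterol reductase that also anchors chromatin at the nuclear envelope, had a difference of 0.34 (SE 0.16, limma adjusted p = 0.625), and Hsd17b7, a keto-reductase of the late pathway, one of -0.25 (SE 0.16, limma adjusted p = 0.639). The covariate fit gave 0.25 for Pmvk, 0.19 for Lbr and -0.10 for Hsd17b7.

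The genes that control SREBP2, listed together with further SREBP2 targets, gave no call either. Of these 18 genes 14 were tested, 4 with a positive and 10 with a negative difference, where 6238 of all 10639 genes were negative. Their median was -0.11, against -0.04 over all genes. None of the 14 passed in limma and 1, Stard4, had an unadjusted p under 0.05, where 813 of all 10639 genes had one. Mbtps2, the site-2 protease, had a difference of -0.29 (SE 0.15, limma adjusted p = 0.628), Scap, the escort of SREBP2, one of -0.23 (SE 0.12, limma adjusted p = 0.628), and Insig2, which retains SCAP, one of -0.22 (SE 0.12, limma adjusted p = 0.634). With the Gapdh ratio as covariate, which overlaps with genotype, these differences were smaller, -0.12 for Mbtps2, -0.07 for Scap and -0.04 for Insig2. Insig1, a feedback target of SREBP2, was at -0.03 (SE 0.16, limma adjusted p = 0.957). Chosen after its values were seen, Mbtps1, the site-1 protease, had a difference of -0.29 in the last-listed and 0.20 in the first-listed arrays, and the test of that departure gave -0.49 (limma adjusted p = 0.0359). Mbtps1 and Me1 were the 2 of 54 genes in the 4 lists of lipid genes that passed this test, where 2.54% of all probe sets did.

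Genes of fatty acid synthesis, which answer mainly to the related factor SREBP1, likewise gave no call. Of 17 such genes 13 were tested, 7 with a positive and 6 with a negative difference, where 6238 of all 10639 genes were negative. None passed in limma and the median was 0.0045. An unadjusted p under 0.05 was found for 1 of the 13, where 813 of all genes had one. That one was Scd2, a stearoyl-CoA desaturase, which ran from 4.37 to 20.7 in deficient grafts and from 2.26 to 9.14 in wild-type grafts. Its difference was 1.04 (SE 0.35, limma adjusted p = 0.606), with overlapping ranges. The next by p were Elovl5 at -0.17, Mlxipl at -0.22 and Acly at -0.13.

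Of 12 genes of sterol efflux and the LXR receptors 8 were tested, with a median of -0.02. The difference was positive for 3 and negative for 5, where 6238 of all 10639 genes were negative. None passed in limma. An unadjusted p under 0.05 was found for 1 of the 8, Scarb1, where 813 of all genes had one. Scarb1, a receptor for high-density lipoprotein, was at 0.209 to 0.329 in deficient grafts and 0.292 to 0.407 in wild-type grafts. Its difference was -0.45 (SE 0.15, limma adjusted p = 0.606). The others of lowest p were Nr1h3 at -0.13, Ch25h at 0.14 and Apoe at -0.05.

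**Figure D3:**
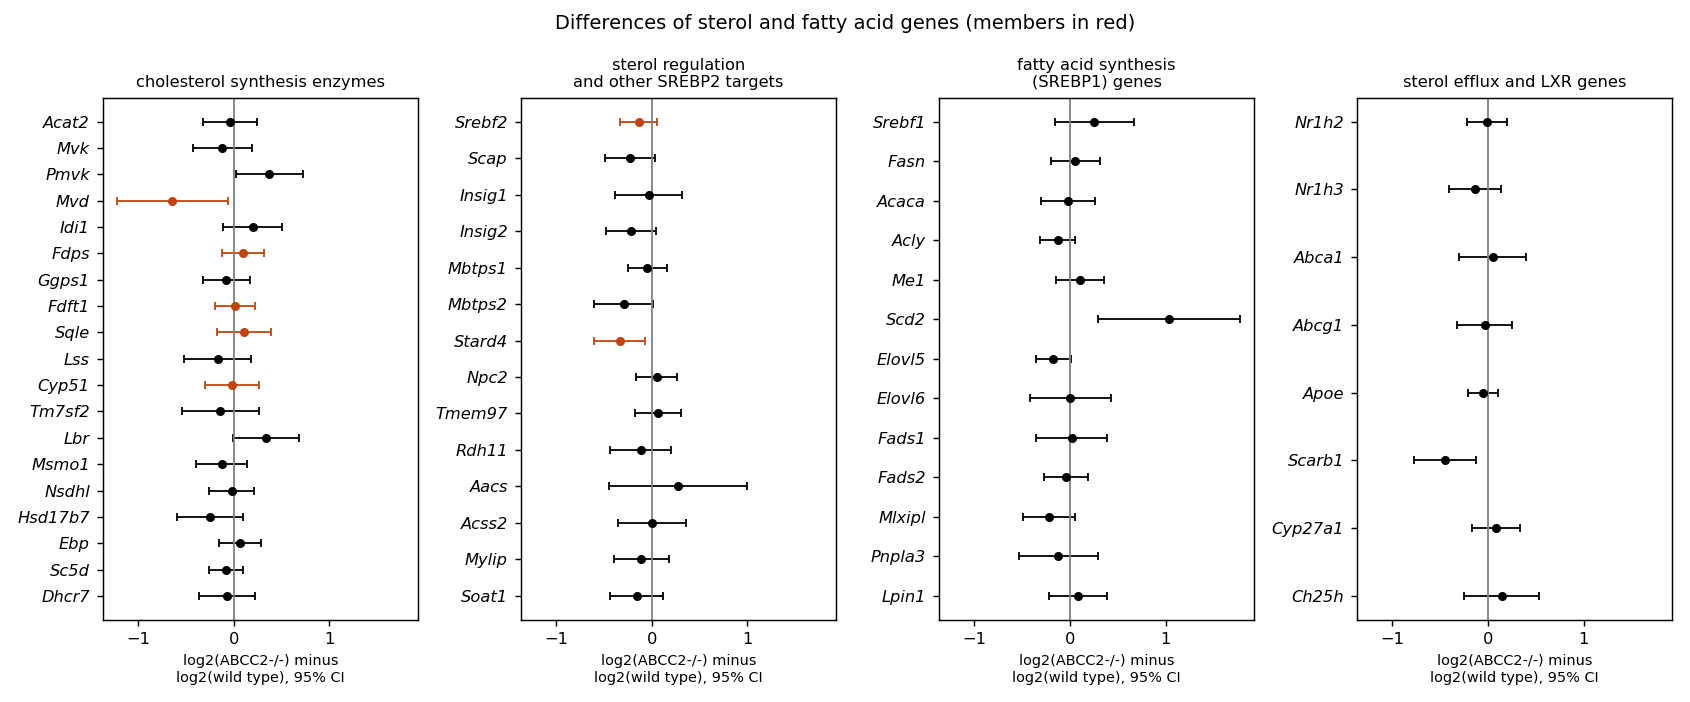
Difference log2(ABCC2-/-) minus log2(wild type), horizontal axis, with its 95% confidence interval over 12 arrays for the tested genes of 4 lists, members in red. Mvd is at -0.64, Pmvk at 0.37, Stard4 at -0.34, Scd2 at 1.04 and Scarb1 at -0.45, and no gene shown passed the adjusted threshold.

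Markers of other cells that a cortex sample can hold were read beside these values. All 15 proximal tubule markers were tested, and their summed signal was 587 to 667 in deficient grafts and 570 to 756 in wild-type grafts. The summed medulla and distal markers were at 143 to 151 in deficient grafts and 141 to 158 in wild-type grafts. Of the adrenal markers, a tissue rich in sterol enzymes, 7 of 8 were below the level filter, and Cyp11b1, Cyp17a1 and Star, enzymes and a carrier of steroid synthesis, were at or below the floor in 9, 10 and 7 of the 12 arrays. Hsd3b1 was there in 3 arrays, Cyp11a1 and Cyp21a1 in 1 each and Nr5a1 and Fdx1 in 0. Of the liver markers 7 of 10 were below the filter and Tat was at or below the floor in all 12 arrays, whereas Fga and Ttr were above it in all 12. Apob, above the floor in 10 arrays, had a difference of -1.28 (SE 0.36, limma adjusted p = 0.606). The summed macrophage markers were at 31.0 to 44.1 in deficient grafts and 28.1 to 37.2 in wild-type grafts, and their part in the members' values was not tested. Each sum follows its brightest probe sets. For the macrophage markers this was Lyz2, with a mean of 28.7 in deficient and 25.9 in wild-type grafts. In the last-listed arrays, where Mvd passed, 3 of 58 tested markers passed too, all lower in deficient grafts, where 6.39% of all probe sets passed. They were Slc5a2 of the proximal tubule at -0.41 (limma adjusted p = 0.0449), Slc12a3 of the distal tubule at -0.70 (limma adjusted p = 0.00387) and Slc4a1 of red blood cells at -0.57 (limma adjusted p = 0.0480). In the same arrays the median difference was -0.07 for the proximal tubule, -0.12 for the medulla and distal and -0.48 for the red blood cell markers. Other markers of the tubule lists were higher in deficient grafts there, for example Slc34a1 at 0.14 and Calb1 at 0.20. In bulk tissue, fewer cells of a type and less RNA per cell cannot be told apart.

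The members were also compared over the 12 arrays, on log2 signals less their genotype mean, each gene by its probe set of highest mean. Of the 21 pairs of the 7 genes, 17 had a Pearson r above 0, with a median of 0.23 and a range of -0.45 to 0.65. The share of positive r among pairs of other genes was not measured, so the count has no background. After Benjamini-Hochberg adjustment over the 21 pairs, 0 passed by Pearson's r in permutation tests, of which 2 had an unadjusted p under 0.05, and 1 passed by Spearman's rho. This was the pair of Cyp51 and Srebf2, with r = 0.60 (permutation p = 0.0298, adjusted p = 0.313) and rho = 0.83 (permutation p = 0.00178, adjusted p = 0.0374). Without the 2 arrays farthest from the median of Cyp51 r was 0.92, and it was 0.90 in the last-listed and 0.71 in the first-listed 6 arrays. Cyp51 and Stard4 had r = 0.65 (permutation p = 0.0263, adjusted p = 0.313), but r was -0.26 in the last-listed against 0.89 in the first-listed arrays. Sqle and Stard4 went the other way, with r = -0.45 and rho = -0.67 (permutation p of rho = 0.0216, adjusted p = 0.227). Fdps and Srebf2 had r = -0.02 over 12 arrays. With genotype by listing position removed it was 0.83, where Cyp51 and Srebf2 had 0.72. The arrays share RNA quality and scaling, which bear on every pair.

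The mean of the 7 standardised member values gave each array 1 score. It was highest in wild-type replicate 1 (0.92) and lowest in deficient replicates 14 (-0.84) and 10 (-0.79), while deficient replicates 3, 5, 9 and 11 were at 0.28 to 0.48 and the other 5 wild-type replicates at -0.60 to 0.16. Of 10632 other genes, Insig1 had the pattern most like this score, with r = 0.88 over 12 arrays. Insig1 was at 3.33, 2.70, 2.46, 1.73, 2.52 and 1.70 in deficient replicates 3, 5, 9, 10, 11 and 14, and at 3.27, 2.27, 2.02, 2.79, 2.13 and 2.08 in wild-type replicates 1, 4, 6, 7, 8 and 9. Its low values fell on deficient replicates 10 and 14, and its highest on deficient replicate 3 and wild-type replicate 1. With the listing position removed too, Insig1 was second, at r = 0.91.

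After Insig1 came Cdr2, Specc1l, Tbc1d2b, Znrf2, Lamc1, Hsd17b7, Pdcd6ip, Zfp36 and Phf23, with r from 0.88 to 0.83. Of these 9, Hsd17b7 alone is in a sterol list, and with the listing position removed Cdr2 alone of them stayed among the first 10. Of 26 sterol genes that are not members, 4 were among the first 100 genes, Insig1, Hsd17b7, Tm7sf2 (r = 0.79) and Dhcr7 (r = 0.76). With the listing position removed Hsd17b7 ranked 72, Tm7sf2 221 and Dhcr7 600. Of the 26, 21 had r above 0, where 65.0% of all genes did. Their median r was 0.41, and it was 0.17 over all genes. Here each gene, sterol gene or not, stood by its probe set of highest r rather than of highest mean. That choice raises r, and more so for genes with several probe sets. These values are descriptions over 12 arrays and carry no test.

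**Figure D4:**
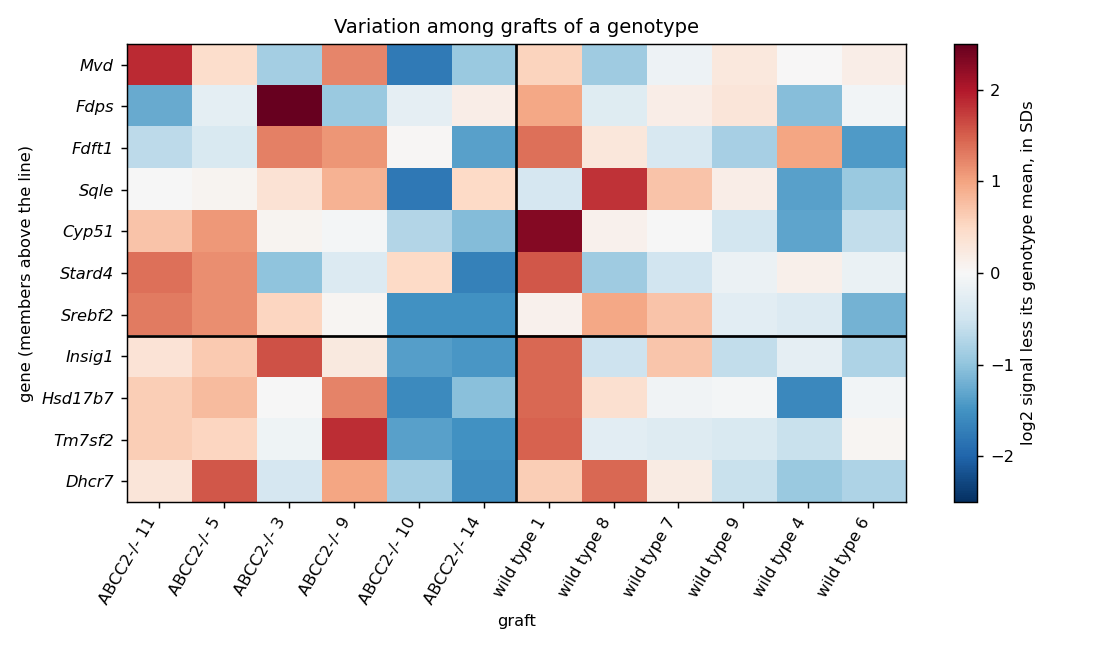
Log2 signal less its genotype mean, in standard deviations of each gene (colour), for the 7 measured members (above the line) and for the 4 sterol genes among the 100 most like their mean (below it), in ABCC2-/- grafts at left and wild-type grafts at right. Deficient replicates 10 and 14 are low in most rows and wild-type replicate 1 is high in most.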

How the data were processed

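Total RNA of renal cortex was labelled with biotin and hybridised to Affymetrix 3′ expression arrays, 1 array per graft, per the labels' protocols. The deposited values are probe set intensity values on a linear scale, 31099 probe sets per array, and the submitters' processing notes name MAS5 and GCOS, with no version. The lowest deposited value was 0.01, which may be a limit set before deposit. Such a limit would hide differences between dim probe sets. Here 57 control probe sets were left out, values under the pooled 20th percentile (0.0694) were set to that value, and the deposited values were put on a log2 scale. Arrays were not normalised further. Probe sets whose mean log2 signal reached the 40th percentile, 18625 in all, were tested with limma 3.58.1 in R 4.3.3 (lmFit, eBayes with trend, genotype alone), at an adjusted p of 0.05. Single probe sets were compared by exact permutation over 924 splits, whose smallest p is 0.00216. The platform annotation gave 1 symbol for 20832 probe sets, 6 of them controls, several for 436, and listed none for 9780. In lists each gene stood by its tested probe set of highest mean.

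The members, lists, tests and promoter motifs were chosen with earlier results of these data known. The rule for named genes took every member probe set, from each further list the genes past the threshold or else the 4 of lowest p, the 10 genes most like the members, and Abcc2. Other genes named in the text fall outside this rule, among them Mbtps1, Me1, Dhcr7, Tm7sf2, Idi1 and Msmo1. The alternatives changed the floor, filter, normalisation, variance model, array weights, listing position, Gapdh ratio and arrays used. The test of genotype by listing position was added after the data were seen.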

Additional observations from a re-analysis of the deposited data

Results flagged for a closer look

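Among the 22 groups of 6 arrays of the tested member probe sets, 1 held a graft that stood apart from the other 5, and chance gives about 1 in 20. The Sqle probe set was at 0.470 in deficient replicate 10, the lowest deficient graft, and its gap to the next was 0.670 of the range of the 6 deficient grafts. The dim Srebf2 probe set, which was not tested, was at 0.152 in the same deficient replicate 10, above the floor. The other 5 deficient grafts were at or below the floor, which alone sets their distance from it, so no rarity is read from this value.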

How the results depend on the processing

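No paired analysis was possible because the genotypes share 1 replicate number alone. The count of tested probe sets past the threshold, 4 over 12 arrays, was 112 (38 higher) with the listing position as a block, 1190 (686 higher) in the last-listed arrays, and 3 to 5 when 1 array was left out. For the members the count was 1, Mvd at -1.08, in the last-listed arrays and 0 in every other setting, also with 1 array left out. The median difference of the enzymes ran from -0.088 to 0.0083 and that of the member probe sets from -0.091 to 0.059 with 1 array left out. Of 286 comparisons of a member probe set with an alternative, 252 kept direction and side of the threshold and 33 changed sign. The changes of floor, filter and variance model and the listing block left every member's log2 difference as it was. No member's sign could turn in those settings, which are part of the 286, so these counts overstate stability. Of 364 comparisons for the 14 named genes of the other lists 361 kept both and 3 changed sign. Signs turned to these log2 differences. First-listed arrays gave -0.10 for Fdps, 0.024 and 0.088 for the brighter and dimmer Cyp51, -0.29 for the third Stard4 probe set, 0.020 for Srebf2, -0.0067 for Lbr and -0.094 for Ch25h. Last-listed arrays gave -0.035 for the brighter Fdft1 and -0.042 for Sqle. The Gapdh ratio gave -0.0061 for Fdps, 0.079 and 0.033 for Cyp51 and -0.092 for the third Stard4, and with the listing block -0.059 for Fdps, 0.090 for the dimmer Cyp51, -0.0054 for the third Stard4 and -0.093 for Ch25h. Median centring gave -0.041 for the brighter Fdft1 and -0.036 for the third Stard4, quantile normalisation 0.040 for the brighter Cyp51 and -0.038 for the third Stard4, and array weights -0.013 for that Stard4 probe set. With 1 array left out the ranges were -0.031 to 0.059 for the brighter Fdft1, -0.081 to 0.092 and -0.14 to 0.0087 for Cyp51, and -0.091 to 0.22 for the third Stard4. The causes were not tested. Signals near the floor limit what the dim probe sets can show.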

Other observations

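Sterol enzymes beyond the members were also read within each array set, and none of those named here passed the threshold in limma. Each set holds 3 arrays of each genotype, so the difference over 12 arrays is the mean of the set differences. A larger difference within a set therefore follows from the design and is no result. Dhcr7, which makes cholesterol from its last precursor in one branch of the pathway, was at -0.07 over 12 arrays, -0.37 in the last-listed and 0.23 in the first-listed arrays. Tm7sf2, a sterol reductase, was at -0.14 over 12 arrays, -0.37 in the last-listed and 0.09 in the first-listed arrays. Lbr, which catalyses the same reduction as Tm7sf2, was at 0.68 in the last-listed and -0.01 in the first-listed arrays. Idi1, the isomerase that follows Mvd, was at 0.25 in the last-listed and 0.15 in the first-listed arrays, and Msmo1, a sterol oxidase, was at -0.13 and -0.12 in the same order. The adjusted p for the test of the departure between the array sets was 0.121 for Dhcr7, 0.362 for Tm7sf2 and 0.215 for Lbr in limma.

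Of the marker lists not given above, the summed red blood cell markers were at 11.5 to 47.2 in deficient grafts and 20.9 to 54.6 in wild-type grafts. That sum mostly follows Hbb, with a mean of 27.7 in deficient and 32.4 in wild-type grafts. All 4 of these markers had a negative difference, where 6238 of all 10639 genes had one. The summed lymphocyte markers were at 2.08 to 3.24 in deficient grafts and 2.60 to 2.84 in wild-type grafts. The summed glomerulus and endothelium markers were at 24.9 to 29.4 in deficient grafts and 24.7 to 31.3 in wild-type grafts. Of the fat markers 5 of 9 were below the level filter, and the sum was 4.50 to 5.44 in deficient grafts and 3.66 to 5.98 in wild-type grafts. Their part in the members' values was not tested.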
